A study of Sus scrofa with 12 samples.

Results

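The low-density lipoprotein (LDL) receptor family was described across 6 pig ovaries, with LRP8 (apolipoprotein E receptor 2) as its leading member. The members were the 9 rows of the gene table with exactly the symbols LRP8, VLDLR, LRP1, LRP1B, LRP2, LRP4, LRP5, LRP6 and SORL1, out of 29884 genes. LRP8 was chosen by its measured values, since it was lower in all 3 ovaries of one litter size group than in all 3 of the other. The other 8 members were taken as its receptor family. The values of LRP8 are therefore given as a description, without a test.

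LDL receptor family proteins are membrane receptors that bind lipoproteins, proteases and signalling proteins outside the cell, and most of them carry their cargo inward through clathrin-coated pits. LRP8 and VLDLR bind reelin and apolipoprotein E, and pass the reelin signal on through the adaptor DAB1, which docks on a short motif of their cytoplasmic tails. LRP5 and LRP6 work differently, as co-receptors of Wnt proteins, and SORL1 sorts cargo between the Golgi and endosomes. In the ovary, lipoprotein receptors deliver cholesterol, the precursor of progesterone, to steroid-producing luteal, theca and granulosa cells.

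The study compared ovaries of sows with a small litter size (SLS, group mean 8.48 ± 0.53 piglets per litter) and a large litter size (LLS, 16.19 ± 0.43). It asked whether their circular RNA (circRNA) profiles differ, and the gene levels of the same ovaries are used here. The sows came from a commercial farm, and their left ovaries were taken 4 days after delivery number 4. RNA without ribosomal RNA was sequenced as 1 library per ovary, which came from ZD2, ZD3 and ZD12 in the SLS group and from ZD5, ZD7 and ZD8 in the LLS group. Levels are given in the authors' unit, FPKM, sequenced fragments scaled to transcript length and to the library total, so that genes of different length can be set side by side.

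The library totals that scale the FPKM values were inferred from those values. They ran from 32272803 reads in ZD8, the shallowest, to 60903268 reads in ZD2. The LLS ovary ZD8 stood apart from the other 5 in its cell type markers. The summed level of 7 luteal genes (STAR, CYP11A1, HSD3B1, SCARB1, LHCGR, PTGFR and PRLR) was 124 FPKM in ZD8 against 9167 to 12191 FPKM in the other ovaries, and 6 of the 7 were lowest there. The 8 oocyte genes and both theca genes of the marker lists were all highest in ZD8. In whole ovaries, fewer cells of a type and less RNA per cell cannot be told apart. The main results are therefore given with and without ZD8. The p-values below come from limma over all 12260 genes with at least 1 FPKM in at least 3 libraries, and measure only the spread between these ovaries.

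The members share short docking motifs in the cytoplasmic tail, which were read from the coding sequence of the longest annotated protein in the Sscrofa11.1 genome (RefSeq annotation). They are shown because different members carry different motifs. Capitals mark the codons of the motif, with 9 bases on each side. The first sequences hold the NPXY motif (asparagine, proline, any residue, tyrosine), the docking site of DAB1 and of endocytic adaptors. It lies in coding exon 19 of LRP8 (chr6:158978341-158978370, plus strand), exon 18 of VLDLR (chr1:219180075-219180104, minus strand), exon 93 of LRP1 (chr5:22518284-22518313, plus strand) and exon 37 of LRP4 (chr2:15666671-15666700, plus strand). LRP5 (coding exon 22, chr2:4535407-4535445, minus strand) and LRP6 (coding exon 23, chr5:60309085-60309123, plus strand) hold instead the motif of Wnt co-receptors known as PPPSPXS, searched here with either serine or threonine wherever that name has serine. The first copy is shown and ends in threonine. SORL1 (coding exon 47, chr9:48648229-48648264, plus strand) holds a FXNSHY motif, through which it binds the retromer sorting complex.
LRP8: aatttcgacAACCCCGTGTACaggaagacg
VLDLR: aattttgatAATCCTGTGTACttgaagacc
LRP1: aacttcaccAACCCCGTGTACgccacactc
LRP4: acctacagcAACCCTTCCTACcgaacttcc
LRP5: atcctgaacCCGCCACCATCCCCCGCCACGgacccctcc
LRP6: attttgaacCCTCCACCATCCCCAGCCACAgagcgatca
SORL1: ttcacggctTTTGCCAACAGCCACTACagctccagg

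LRP8 and VLDLR were identical at 23 of the 30 bases shown and at 10 of the 12 motif bases. In both genes, phenylalanine and aspartate precede the motif, and in none of the other members. The tails of LRP1, LRP1B and LRP2 hold 2 NPXY motifs each, those of LRP8, VLDLR and LRP4 hold 1, and those of LRP5, LRP6 and SORL1 hold none. With this looser pattern, LRP5 and LRP6 each hold 3 copies of the co-receptor motif. These matches describe the letters of the longest annotated proteins, not binding.

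Gene sizes differed widely among the members. LRP8 spans chr6:158905464-158984743 on the plus strand, with 21 exons in its longest transcript of 5598 nucleotides, and its longest protein has 1069 residues. VLDLR (chr1:219178501-219210332, minus strand) codes for 873 residues. The large receptors LRP1 (chr5:22435636-22519276, plus strand), LRP1B (chr15:9612805-11499969, plus strand) and LRP2 (chr15:75565299-75754604, minus strand) code for 4541, 4646 and 4651 residues. The annotation holds 18 transcripts of LRP8, and the values per gene do not separate them.

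LRP8 was lower in each LLS ovary than in each SLS ovary, and this is the property it was chosen for. Its level was 103 FPKM in ZD2, 113 in ZD3 and 129 in ZD12 of the SLS group. In the LLS group it was 29.9 FPKM in ZD5, 28.6 in ZD7 and 10.4 in ZD8. The 3 SLS ovaries lay close together, ZD5 and ZD7 were nearly equal, and ZD8 was lowest of all. The values at the border of the choice were 103 FPKM in the lowest SLS ovary and 29.9 FPKM in the highest LLS ovary, 3.45 times apart.

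Group means of LRP8 were 115 ± 13 FPKM (SD, n = 3) in SLS and 23.0 ± 10.9 FPKM (SD, n = 3) in LLS, 5.01 times higher in SLS. Without ZD8 the SLS mean was 3.93 times the LLS mean. The difference of LLS from SLS on the log2(FPKM + 1) scale was -2.40 (SE 0.41), and -1.93 (SE 0.24) without ZD8. Adding 1 FPKM before the logarithm understates differences of genes near 0, and matters little at the level of LRP8. These values rest on many reads, from 1887 in ZD8 and 9646 in ZD5 to 38209 in ZD12. The within-group SD of LRP8 was 0.58 on the log2 scale.

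**Figure D1:**
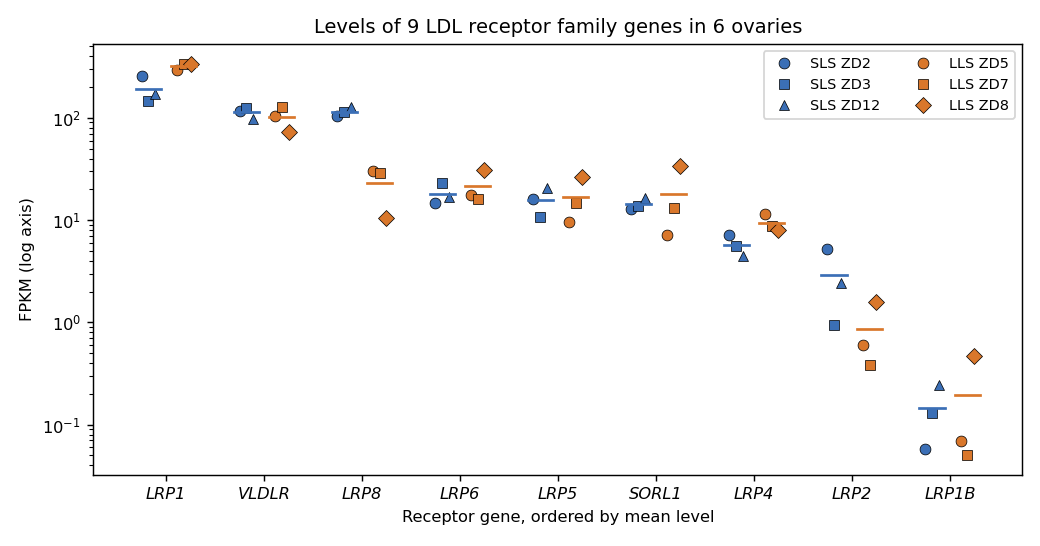
FPKM of the 9 members in each ovary on a log axis, with SLS in blue, LLS in orange, ZD8 as a diamond and horizontal lines for the group means. LRP8 is the member whose SLS values all lie above its LLS values, with 103 FPKM in the lowest SLS ovary and 29.9 FPKM in the highest LLS ovary. LRP1 and LRP4 are separated the other way.

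The share of LRP8 in the summed level of the 9 members shows how the receptor mix differed. The sum itself was 532, 439 and 460 FPKM in ZD2, ZD3 and ZD12, and 473, 547 and 524 FPKM in ZD5, ZD7 and ZD8, and the groups overlapped. LRP8 made up 19.4%, 25.8% and 28.0% of it in ZD2, ZD3 and ZD12. In ZD5, ZD7 and ZD8 it made up 6.33%, 5.22% and 1.99%. The sum thus overlapped between the groups, while the part that LRP8 held was smaller in each LLS ovary.

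LRP1, the large endocytic receptor, held 33.3% to 48.1% of the sum in SLS and 61.6% to 64.7% in LLS. VLDLR held 21.2% to 28.6% in SLS and 14.0% to 23.4% in LLS, with overlap. The ratio of LRP8 to VLDLR, both reelin receptors, was 0.880, 0.90 and 1.32 in ZD2, ZD3 and ZD12 and 0.285, 0.223 and 0.143 in ZD5, ZD7 and ZD8. LRP8 stood near or above VLDLR in the SLS ovaries, and well under it in the LLS ovaries. These shares and ratios contain LRP8 itself, and so carry the choice of LRP8 with them.

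**Figure D2:**
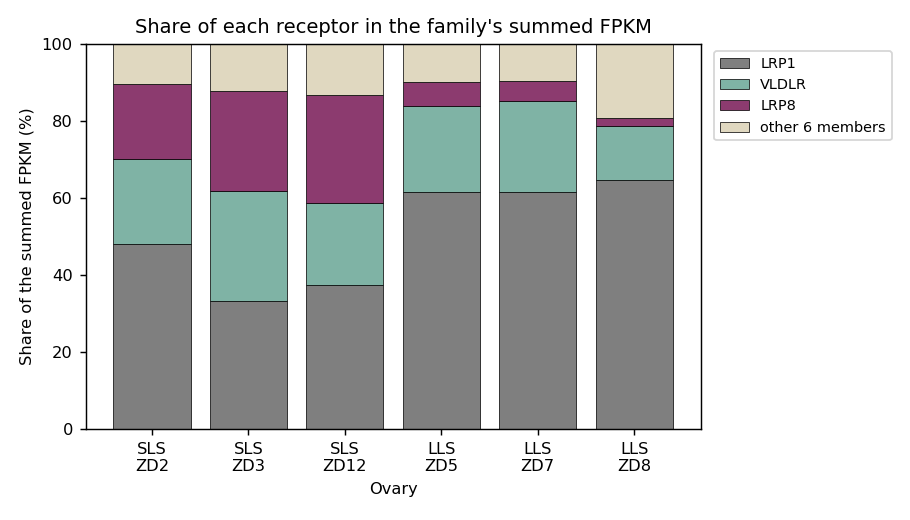
Share of each member in the summed FPKM of the 9 members, as 1 stacked bar per ovary from 0 to 100%. LRP8 takes 19.4% to 28.0% in the SLS ovaries and 1.99% to 6.33% in the LLS ovaries, and LRP1 takes over 61% in each LLS ovary.

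The low level of LRP8 was found in LLS ovaries with and without a luteal expression pattern. ZD5 and ZD7 had summed luteal levels of 12191 and 10859 FPKM, beside an SLS range of 9167 to 10808 FPKM. ZD5 was above that range, and ZD7 by a small margin only. LRP8 was at 29.9 FPKM in ZD5 and 28.6 FPKM in ZD7. STAR, which brings cholesterol into mitochondria for steroid synthesis, was at 2542, 4790 and 2722 FPKM in ZD2, ZD3 and ZD12, at 5418 and 4429 FPKM in ZD5 and ZD7, and at 26.4 FPKM in ZD8. STAR thus set ZD8 apart from the other 5 ovaries. That LRP8 was lower in all 3 LLS ovaries is the property it was chosen for. The part of luteal cells in its level was not tested.

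Single marker genes did move with LRP8. LHCGR, the luteinizing hormone receptor of luteal cells, was at 27.8, 70.5 and 46.1 FPKM in ZD2, ZD3 and ZD12, and at 22.5, 24.2 and 10.4 FPKM in ZD5, ZD7 and ZD8. It was the one luteal gene of 7 whose groups did not overlap, where 3.17% of all tested genes were lower in LLS without overlap and 1.95% were higher. Without ZD8 the luteal genes SCARB1 and PTGFR also ceased to overlap, with LLS higher, as in 7.44% of all tested genes. INHA, the inhibin alpha subunit of granulosa cells, was at 553, 376 and 726 FPKM in the SLS ovaries and at 285, 162 and 66.4 FPKM in ZD5, ZD7 and ZD8.

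INHA was the one granulosa gene of 6 whose groups did not overlap (background 3.17% lower), and without ZD8 FOXL2 was lower and INHBA higher in LLS as well (background 11.7% lower, 7.44% higher). It made up most of the summed granulosa level, which was 387 to 772 FPKM in SLS and 130 to 299.9 FPKM in LLS, and CYP19A1, the estrogen-making aromatase, was listed at 0 in 5 of 6 ovaries. PRLR, the prolactin receptor of the luteal list, was at 0 to 1.16 FPKM. The endothelial gene PECAM1 was also lower in every LLS ovary, while the summed level of 5 endothelial genes overlapped (244 to 317 FPKM in SLS, 115 to 371 FPKM in LLS).

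Of 6 genes of surface epithelium and mesothelium in the table, 2 did not overlap between the groups, and 1 of these, KRT18, was under the filter and so outside the 12260 genes of the background (1.95% higher, 3.17% lower). EPCAM, an epithelial adhesion protein, was at 0.312, 0.339 and 1.28 FPKM in ZD2, ZD3 and ZD12 and at 27.8, 9.73 and 2.31 FPKM in ZD5, ZD7 and ZD8, and so was higher in LLS, as LRP1 and LRP4 were. Its log2 difference was 2.66 (SE 0.70, adjusted p = 0.999 by limma), and 3.47 (SE 0.42, adjusted p = 0.022 by limma) without ZD8. That fit, with ZD5 and ZD7 as the only LLS ovaries, called 20 genes. Leaving out any other single ovary called 0. KRT18, a keratin, was at 6.30, 0.431 and 0.237 FPKM in the SLS ovaries and at 0.0967, 0 and 0.151 FPKM in ZD5, ZD7 and ZD8, lower in LLS. The summed level of the 6 genes overlapped (4.96 to 26.8 FPKM in SLS, 11.6 to 30.1 FPKM in LLS).

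Smooth muscle genes overlapped between the groups with ZD8 and did not without it. All 4 (ACTA2, MYH11, CNN1 and DES) were then lower in ZD5 and ZD7 than in each SLS ovary, as were LRP8 and 11.7% of all tested genes. So were FOXL2 (granulosa), CYP17A1 (theca), DCN (stroma) and KRT19 (epithelium), while the endothelial genes VWF and KDR were higher, as were 7.44% of all tested genes. ACTA2, smooth muscle actin, was at 1098, 384 and 592 FPKM in ZD2, ZD3 and ZD12 and at 196, 374 and 428 FPKM in ZD5, ZD7 and ZD8. The summed level of the 4 genes was 434 to 1176 FPKM in SLS and 224 to 668 FPKM in LLS. The part of these cell types in the levels of LRP8, LRP1 and LRP4 was not tested.

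**Figure D3:**
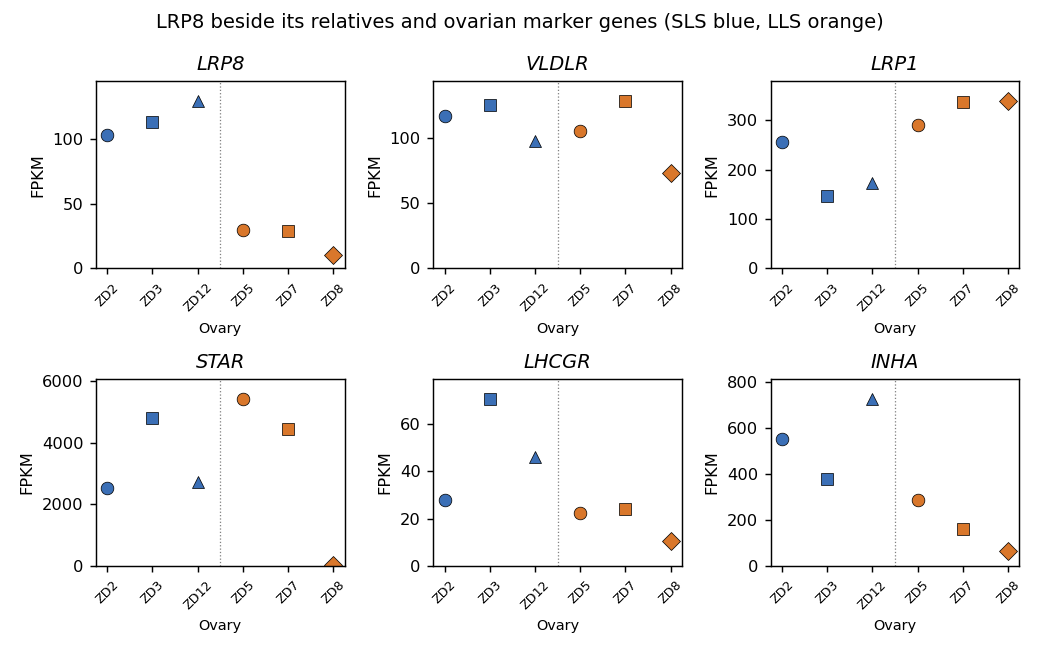
FPKM per ovary (linear axes from 0) of LRP8, VLDLR, LRP1, STAR, LHCGR and INHA, with SLS in blue, LLS in orange and ZD8 as a diamond. STAR drops in ZD8 alone, at 26.4 FPKM, whereas LRP8, LHCGR and INHA are lower and LRP1 is higher in all 3 LLS ovaries.

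Among the other 8 members, 7 passed the filter on low values. None of the 7 was called at an adjusted p under 0.05 and an absolute log2 difference over 1, and none of all 12260 tested genes was (0% called). At an unadjusted p under 0.05, limma gave 0 of the 7 and 216 of all genes, and limma voom on recovered reads gave 2 of the 7 and 201 of all genes. Groups did not overlap in 2 of the 7, LRP1 and LRP4, both higher in LLS, where 1.95% of all tested genes were higher without overlap and 3.17% were lower. The median log2 difference was 0.056 over the 7 members and 0.020 over all tested genes. Both turned sign with ZD8 left out, to -0.019 over the members that still passed the filter and -0.097 over all such genes. Of the 7, 2 were then higher in LLS without overlap and 1 lower, beside 7.44% and 11.7% of all tested genes.

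VLDLR, the closest relative of LRP8 and a receptor of triglyceride-rich lipoproteins, overlapped between the groups. Its level was 117, 126 and 97.6 FPKM in ZD2, ZD3 and ZD12, and 105, 128 and 73.1 FPKM in ZD5, ZD7 and ZD8. The highest and the lowest value were both in LLS, in ZD7 and ZD8. The means were 113 ± 14.4 FPKM (SD, n = 3) in SLS and 102 ± 27.7 FPKM (SD, n = 3) in LLS. The log2 difference was -0.18 (SE 0.33, 95% interval -0.93 to 0.57, adjusted p = 0.999 by limma), and 0.040 without ZD8.

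LRP1, which clears protease-inhibitor complexes, apolipoprotein E remnants and matrix proteins, had the highest level of the members. It was at 256, 146 and 172 FPKM in ZD2, ZD3 and ZD12, and at 291, 337 and 339 FPKM in ZD5, ZD7 and ZD8. Each LLS ovary was above each SLS ovary, and ZD2 came closest to the LLS ovaries. The means were 192 ± 57.2 FPKM (SD, n = 3) in SLS and 323 ± 27.1 FPKM (SD, n = 3) in LLS, 1.68 times higher in LLS and 1.64 times without ZD8. The log2 difference of 0.79 (SE 0.38, 95% interval -0.083 to 1.65) did not pass the test (adjusted p = 0.999 by limma, 0.763 without ZD8).

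LRP4, the agrin receptor of the neuromuscular junction and a modulator of Wnt signalling, was at a lower level but was separated in the same direction. It was at 7.09, 5.54 and 4.49 FPKM in ZD2, ZD3 and ZD12, and at 11.4, 8.67 and 8.09 FPKM in ZD5, ZD7 and ZD8. The groups did not overlap, and ZD8 was the LLS ovary nearest to SLS. The means were 5.71 ± 1.31 FPKM (SD, n = 3) and 9.39 ± 1.78 FPKM (SD, n = 3), 1.65 times higher in LLS and 1.76 times without ZD8. The log2 difference was 0.64 (SE 0.28, 95% interval -0.0094 to 1.28, adjusted p = 0.999 by limma, 0.651 without ZD8).

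LRP2 (megalin), the uptake receptor of absorptive epithelia, varied strongly between ovaries of 1 group. It was at 5.25, 0.950 and 2.42 FPKM in ZD2, ZD3 and ZD12, and at 0.594, 0.384 and 1.58 FPKM in ZD5, ZD7 and ZD8. The groups overlapped through ZD3 and ZD8, and without ZD8 both LLS ovaries were lower than every SLS ovary, as in 11.7% of all tested genes. For LRP2 the log2 difference was -0.96 (SE 0.46, 95% interval -2.02 to 0.10, adjusted p = 0.999 by limma). LRP2 passed the filter through ZD2, ZD12 and ZD8, and with ZD8 left out it fell under the filter. At this low level the added 1 FPKM weighs on the difference, which was -1.55 with 0.1 FPKM in its place.

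LRP1B, a relative of LRP1 with slow endocytosis, had the lowest level of the members, was under the filter of 1 FPKM and was not tested. Its level was 0.0574, 0.130 and 0.247 FPKM in ZD2, ZD3 and ZD12, and 0.0694, 0.0503 and 0.468 FPKM in ZD5, ZD7 and ZD8, from 49 to 242 reads. The groups overlapped, and ZD8 was highest. The exact Poisson intervals (95%, counting error only) of 0.411 to 0.531 FPKM in ZD8 and 0.214 to 0.282 FPKM in ZD12 did not meet.

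LRP5 and LRP6, the Wnt co-receptors, were at similar levels to each other and overlapped between the groups. LRP5 was at 16.0, 10.7 and 20.4 FPKM in ZD2, ZD3 and ZD12, and at 9.61, 14.5 and 26.5 FPKM in ZD5, ZD7 and ZD8. LRP6 was at 14.7, 23.0 and 16.9 FPKM in the SLS ovaries, and at 17.6, 16.2 and 30.8 FPKM in ZD5, ZD7 and ZD8. ZD8 had the highest level of both genes. The log2 difference was 0.030 (SE 0.40, 95% interval -0.89 to 0.95) for LRP5 and 0.20 (SE 0.33, -0.55 to 0.95) for LRP6, each with an adjusted p of 0.999 by limma. Without ZD8 the values were -0.34 and -0.079, of the opposite sign.

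SORL1, which carries the LDL receptor repeats together with a VPS10 sorting domain, was most variable in LLS. It was at 12.8, 13.7 and 16.6 FPKM in ZD2, ZD3 and ZD12, and at 7.12, 13.2 and 33.8 FPKM in ZD5, ZD7 and ZD8. ZD5 lay below the narrow SLS range, ZD7 within it and ZD8 above it. The log2 difference was 0.056 (SE 0.49, 95% interval -1.07 to 1.18, adjusted p = 0.999 by limma), and -0.51 without ZD8. ZD8 was thus the ovary with the highest LRP1 (by a small margin over ZD7), LRP1B, LRP5, LRP6 and SORL1 and the lowest LRP8 and VLDLR, and the part of its cell types in this order was not tested.

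**Figure D4:**
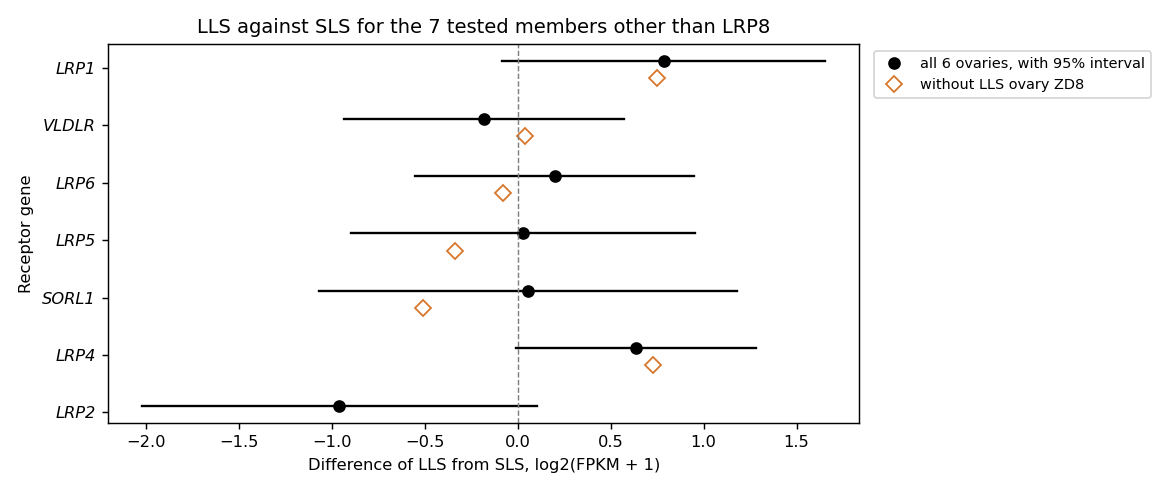
Difference of LLS from SLS in log2(FPKM + 1) for the 7 tested members other than LRP8, with all 6 ovaries (points, bars for the 95% interval) and without ZD8 (diamonds). Each interval spans 0. VLDLR, LRP5, LRP6 and SORL1 change sign without ZD8, and LRP2 has no value without ZD8 because it falls under the filter.

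The mean levels over the 6 ovaries, per length of transcript, were in the order LRP1 (257 FPKM), VLDLR (108), LRP8 (69.0), LRP6 (19.9), LRP5 (16.3), SORL1 (16.2), LRP4 (7.55), LRP2 (1.86) and LRP1B (0.170). LRP1 was above VLDLR in 6 of 6 ovaries, and this was the one pair of neighbours whose ranges did not overlap. VLDLR was above LRP8 in 5 of 6 ovaries, with ZD12 as the exception. LRP8 held place 3 among the members in ZD2, ZD3, ZD5 and ZD7, place 2 in ZD12 and place 6 in ZD8. LRP6, LRP5 and SORL1 exchanged places between ovaries. LRP4 was above LRP2, and LRP2 above LRP1B, in 6 of 6 ovaries.

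Ligands, adaptors and other partners of the receptors were described by 10 lists. Of their 79 tested genes, limma called 0 and gave 4 an unadjusted p under 0.05, beside 216 of all 12260. In 4 of the 79 the groups did not overlap with LLS higher (5.06%, against 1.95% of all tested genes), and in 5 with LLS lower (6.33%, against 3.17%). Without ZD8 there were 11 (13.9%, against 7.44% of all tested genes) and 9 (11.4%, against 11.7%). The median log2 difference over the 79 genes was 0.0059, and that over all tested genes was 0.020. Both turned sign with ZD8 left out, to -0.069 over the list genes that still passed the filter and -0.097 over all such genes.

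Ligands of LRP8 and VLDLR overlapped between the groups in all 7 tested genes, with a median log2 difference of -0.59 (-0.20 without ZD8). SELENOP, the selenium carrier that LRP8 takes up, was the highest of them and in place 23 of all tested genes by mean level, at 811, 1476 and 1183 FPKM in ZD2, ZD3 and ZD12 and at 1402, 1373 and 794 FPKM in ZD5, ZD7 and ZD8. CLU (clusterin) and THBS1 (thrombospondin 1) came next. RELN, which codes for reelin, was at 18.8, 12.5 and 10.4 FPKM in the SLS ovaries and at 5.90, 11.6 and 8.41 FPKM in ZD5, ZD7 and ZD8. Its log2 difference was -0.63 (SE 0.33, adjusted p = 0.999 by limma), with overlap through ZD7. The levels of this list differed widely, with APOB under the filter at 0 to 0.013 FPKM. APOE, the apolipoprotein that binds most receptors of the family, ranged from 82.6 to 177 FPKM in SLS and from 95.7 to 264 FPKM in LLS.

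The reelin relay inside the cell held 11 tested genes, and in 1 of them, DAB1, the groups did not overlap (1.95% of all tested genes were higher in LLS without overlap). DAB1, the adaptor that docks on the NPXY motif of LRP8 and VLDLR shown above, was at 5.73, 5.57 and 6.61 FPKM in ZD2, ZD3 and ZD12. In ZD5, ZD7 and ZD8 it was at 19.5, 9.87 and 23.7 FPKM. Each LLS ovary was above each SLS ovary, opposite to LRP8. On the log2 scale DAB1 differed by 1.34 (SE 0.35, unadjusted p = 0.0044, adjusted p = 0.999 by limma), and 1.10 to 1.69 with any 1 ovary left out. The highest genes of the list, CRKL, PAFAH1B1 and CRK, overlapped, and the median of the list was 0.11 (-0.015 without ZD8).

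The chaperones, sheddases and turnover genes of the receptors overlapped between the groups in all 10 tested genes, with a median log2 difference of -0.041. Without ZD8, 3 were higher in LLS, beside 7.44% of all tested genes. LRPAP1, the chaperone that keeps ligands off the receptors in the endoplasmic reticulum, was at 119, 102 and 147 FPKM in ZD2, ZD3 and ZD12 and at 85.4, 117 and 59.5 FPKM in ZD5, ZD7 and ZD8. MESDC2, a chaperone of LRP5 and LRP6, and ADAM10, a sheddase, came next in level.

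Among 10 tested endocytic adaptors, DAB2 was lower and NUMB higher in every LLS ovary, where 3.17% of all tested genes were lower and 1.95% higher. Without ZD8, 2 adaptors were lower and 1 higher, beside 11.7% and 7.44% of all genes. DAB2, which binds the same NPXY motif for uptake, was at 42.6, 38.2 and 40.6 FPKM in ZD2, ZD3 and ZD12 and at 31.4, 36.1 and 33.0 FPKM in ZD5, ZD7 and ZD8. NUMB was at 12.4 to 15.57 FPKM in SLS and 15.58 to 19 FPKM in LLS, so that the groups nearly touched. The log2 differences were -0.27 and 0.33 (adjusted p = 0.999 for both by limma). The most abundant adaptors, AP2M1, CLTC and SHC1, overlapped, and the median of the list was -0.16.

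Of the 11 tested protease and matrix ligands of LRP1, 3 were lower in every LLS ovary, opposite to LRP1, as were 3.17% of all tested genes. Without ZD8, 4 were lower and 2 higher, beside 11.7% and 7.44% of all tested genes. SERPINE2, an inhibitor of thrombin and plasminogen activators, was at 329, 326 and 535 FPKM in ZD2, ZD3 and ZD12 and at 184, 215 and 148 FPKM in ZD5, ZD7 and ZD8. PLAT, the tissue plasminogen activator, was at 71.4, 65.8 and 79.4 FPKM and at 42.3, 59.7 and 29.2 FPKM in the same order. TFPI, the tissue factor pathway inhibitor, had a mean of 1.85 ± 0.974 FPKM (SD, n = 3) in SLS and 0.743 ± 0.293 FPKM (SD, n = 3) in LLS.

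The log2 differences of SERPINE2, PLAT and TFPI were -1.09 (SE 0.40), -0.77 (SE 0.32) and -0.67 (SE 0.33), each with an adjusted p of 0.999 by limma. That of TFPI, a gene at a low level, depended on the processing. It was -1.15 with 0.1 FPKM added in place of 1, -1.20 with voom on recovered reads and -0.40 without ZD3. CALR, a chaperone, overlapped between the groups, and the median of the list was -0.27.

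Of 17 listed genes that modulate Wnt signalling, 9 passed the filter and were tested. Among these, DKK2 was the one gene without overlap, lower in LLS as were 3.17% of all tested genes. Without ZD8, 3 genes were lower and 1 higher, beside 11.7% and 7.44% of all genes. DKK2 was at 31.1, 74.4 and 40.9 FPKM in ZD2, ZD3 and ZD12 and at 12.7, 15.2 and 2.15 FPKM in ZD5, ZD7 and ZD8. It was lower in each LLS ovary, while its co-receptors LRP5 and LRP6 overlapped. On the log2 scale DKK2 differed by -2.39 (SE 0.63, adjusted p = 0.999 by limma), and -1.64 without ZD8. DKK3 and GSK3B, the other abundant genes of the list, overlapped, and SOST, an inhibitor made by bone cells, was at 0 in all 6 ovaries.

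In the remaining lists, 2 genes were higher in LLS without overlap, beside 1.95% of all tested genes. For LRP4, agrin (AGRN) was at 14.8 to 24.7 FPKM in SLS and 18.7 to 29.8 FPKM in LLS, and MUSK, DOK7, RAPSN and CHRNA1 were under the filter. For LRP2, the co-receptor CUBN was at 1.06 to 1.5 FPKM in SLS and 0.868 to 2.38 FPKM in LLS, CLCN5 and LRP2BP also overlapped, and 4 of 7 partners were under the filter. For SORL1, SORCS1, another VPS10 receptor and 1 of 10 tested partners, was higher in every LLS ovary (1.23 to 1.9 FPKM in SLS, 2.19 to 3.17 FPKM in LLS, log2 difference 0.51), and VPS35, VPS29 and VPS26B of the retromer overlapped. Of 7 tested relatives in the wider superfamily, LDLRAD4 was higher in every LLS ovary, at 1.38 to 1.57 FPKM against 1.69 to 2.83 FPKM. LRP10 and LRP11 overlapped. With ZD8 left out, LRP11 was also higher in LLS, as were 7.44% of all tested genes. It was at 14.3 to 21.2 FPKM in SLS and at 27.4 and 24.5 FPKM in ZD5 and ZD7.

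**Figure D5:**
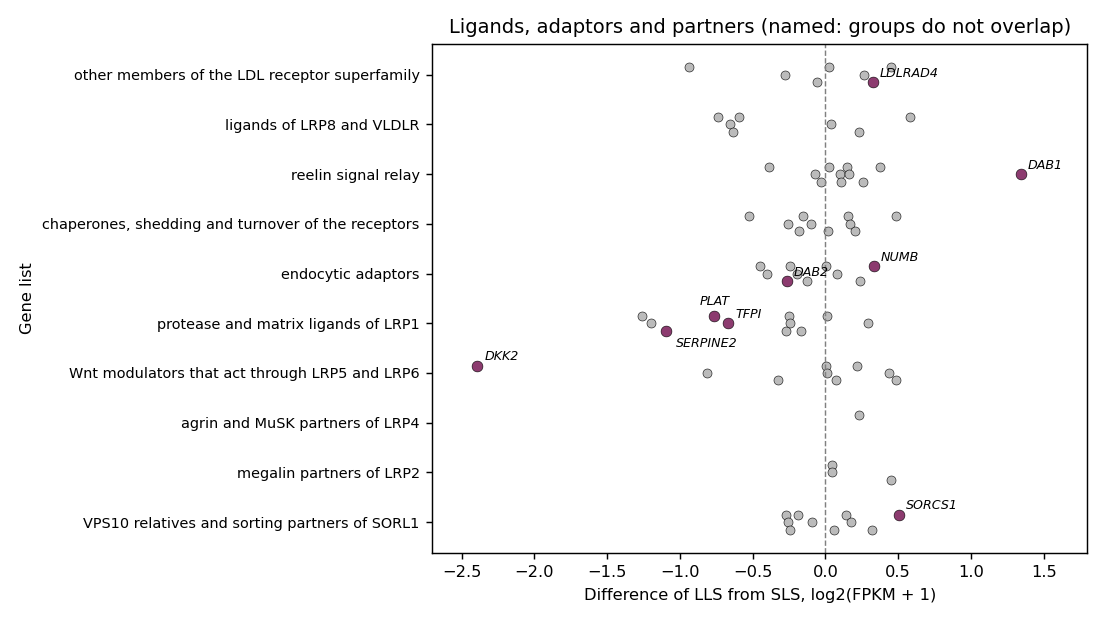
Difference of LLS from SLS in log2(FPKM + 1) for the 79 tested genes of the 10 lists, with 1 point per gene. Named points are the 9 genes whose groups do not overlap, from DKK2 at -2.39 to DAB1 at 1.34.

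The genes most like LRP8 in their pattern over the 6 ovaries were found by the root-mean-square distance of log2(FPKM + 1) values, each centred on the mean of the gene. Among 12259 other tested genes, with a median distance of 1.37, the nearest were DHRS4 (0.281), INHA (0.431), CHAC1 (0.449), RUNDC3A (0.450) and DKK2 (0.463). DHRS4, a retinol and carbonyl reductase, was at 279, 245 and 180 FPKM in ZD2, ZD3 and ZD12 and at 66.5, 60.8 and 23.1 FPKM in ZD5, ZD7 and ZD8. As for LRP8, ZD5 and ZD7 were close together and ZD8 was lowest, while the SLS ovaries ran in the opposite order. Without ZD8, 0 of these 5 genes were among the 5 nearest, and DHRS4 was at place 6 with a distance of 0.307. INHA and DKK2, named above, were at places 33 and 19 over these 5 ovaries.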

How the data were processed

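Total RNA of 6 ovaries was analysed, with 1 library per ovary and sow. After trimming with NGSQCToolkit and alignment to Sscrofa11.1 with HISAT2, the authors deposited gene levels as FPKM. The counting program and annotation are not given in the sources used here. The authors used DESeq2 for mRNA, which works on counts. The main fit here was on the deposited FPKM values, with limma 3.58.1 in R 4.3.3. It used a trended variance on log2(FPKM + 1) and Benjamini-Hochberg adjustment over all tested genes. As an alternative, limma voom was run on reads recovered from the FPKM values. Genes with at least 1 FPKM in at least 3 libraries were tested. The thresholds were those of the study, an adjusted p under 0.05 and an absolute log2 difference over 1.

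Deposited FPKM values were turned back into whole reads through the longest RefSeq transcript for 23477 of 23564 genes (99.6%), within 0.001 of a whole read. They give the depth and the counting intervals. The fit was tested on simulated data. No member shared exon sequence with another annotated gene. The members and lists were chosen with earlier results of these data known. Named were all members, the 3 highest genes of each list, those without overlap, the markers that moved with a member, and the 5 genes nearest to LRP8. Some genes of the lists are not reported here. Small RNA and circRNA values were not analysed here. SEPP1, MESD and CCN2 are listed in the table as SELENOP, MESDC2 and CTGF.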

Additional observations from a re-analysis of the deposited data

How the results depend on the processing

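The alternatives were the pseudocount, the filter, rescaling to TPM, median centring, quantile normalization, no variance trend, array weights, voom on recovered reads and each ovary left out. No gene was called under these, except 13 of 12260 under array weights and 20 without ZD8, where the filter kept another set of genes. The counts of 13 and 20 include LRP8, which was chosen on this contrast, so its call carries no test. Leaving out 1 ovary gave 0 to 20 genes, and an unadjusted p under 0.05 with the fold threshold gave 99 of 12260. Members other than LRP8 were called 0 times in every setting. The LRP8 difference was -2.65 to -1.93 with 1 ovary left out. The sign turned for VLDLR (0.082 with array weights, -0.36 to 0.040 with 1 ovary left out), LRP5 (-0.46, -0.34 to 0.35), SORL1 (-0.51, -0.51 to 0.54) and LRP6 (-0.079 to 0.37 with 1 ovary left out). LRP5 also turned sign without ZD3 (-0.20), and SORL1 without ZD2 (-0.015). Array weights gave ZD8 the lowest weight, 0.14. The cause of these turns of sign was not tested. For LRP2 the differences ranged from -1.79 (voom) to -0.77. Counts of genes without overlap and the nearest genes without ZD8 were added after seeing the data. No paired analysis was possible because the groups hold ovaries of different sows. LRP1B rests on the fewest reads (49 to 242), and 3 ovaries per group limit all comparisons.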

Other observations

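Without ZD8, the tested genes nearest to LRP8 with a gene name were ANPEP (distance 0.217) and the transfer RNA gene TRNAI-UAU (0.261), beside LOC110258110 (0.199), LOC100739121 (0.211) and LOC110258133 (0.285). ANPEP, an aminopeptidase of the cell surface, was at 9.62, 8.09 and 9.16 FPKM in ZD2, ZD3 and ZD12, at 1.9 and 2.44 FPKM in ZD5 and ZD7, and at 5.58 FPKM in ZD8, so ZD8 lay between the groups where LRP8 was lowest. Of the 4 R-spondins, which enhance Wnt signalling through LRP5 and LRP6, 2 were highest in ZD8, with RSPO2 at 12.1 FPKM against 0.405 to 2.64 FPKM in the other 5 ovaries and RSPO3 at 12.1 FPKM against 0.357 to 1.35 FPKM. RSPO1 was at 1.09 FPKM in ZD8 and 1.15 FPKM in ZD12, and RSPO4 was at 0 in all ovaries but ZD2. MYLIP, the ligase that marks VLDLR and LRP8 for degradation, was at 20.9 FPKM in ZD8 and at 3.15 to 7.81 FPKM in the other 5 ovaries. DKK1 was under the filter, at 4.41, 2.49 and 0.189 FPKM in ZD2, ZD3 and ZD12 and at 0.846, 0.492 and 0 FPKM in ZD5, ZD7 and ZD8. These genes were picked after their values were seen and carry no test.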
